A study of Mus musculus with 8 samples.

Results

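The expression of 38 genes of the Fanconi anaemia and homologous recombination pathways was examined in E14.5 mouse fetal ovaries with and without *Bmpr1a*, a type I receptor for BMP ligands, in germ cells. The genes were taken by symbol from the 25239 symbols of the per-library count files as factors that dividing somatic cells also use to sense and repair broken DNA, and factors specific to meiosis were left out. All 38 were found, one of them, *H2afx*, under its newer symbol *H2ax*. All 38 passed the filter on low counts, and the lowest count of any of them in any library was 59. Control embryos were *Bmpr1a* fl/fl, and *Bmpr1a*-cKO embryos were their *Bmpr1a* fl/fl; Oct4-Cre Cre/WT littermates, all female and C57BL/6. The dams of both genotypes received 1 mg of 4-hydroxytamoxifen and 0.5 mg of progesterone by injection on 3 occasions (9.5 dpc, 10.5 dpc, then 11.5 dpc). The Cre is tamoxifen-inducible and driven by *Oct4*, which limits the deletion to germ cells within the gonad, and since control embryos carried no Cre, an effect of Cre itself cannot be told apart from that of the deletion. Each of the 4 control and 4 *Bmpr1a*-cKO libraries came from a pool of 2 ovary pairs, with 8 embryos per genotype drawn from 6 litters. The litters behind each library were not given in the sources used here.

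Homologous recombination repairs a broken chromosome by copying an intact one. The MRN complex finds the broken ends, nucleases resect them to single strands, the BRCA1 group and the BCDX2 and CX3 complexes prepare those strands for pairing with the intact copy, the RAD54 translocases and the BLM complex process the joined molecules, and the kinases ATM and ATR signal the damage. The Fanconi core complex attaches ubiquitin to FANCD2 and FANCI at DNA crosslinks and stalled replication forks and so hands the lesion to the same machinery. Germ cells of the fetal ovary stop dividing and enter meiosis at about this stage, when programmed breaks call on many of these proteins together with meiosis-specific partners.

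The 8 libraries held 8562961 to 15365052 counts each. *Bmpr1a* itself, which somatic cells of the ovary also express, was read at 199, 236, 220 and 215 CPM (counts per library total scaled by TMM) in controls and 185, 194, 190 and 209 CPM in *Bmpr1a*-cKO ovaries. The ranges of *Bmpr1a* overlapped, and its Log2FC of -0.16 ± 0.0640 (SE) did not pass the test (edgeR FDR = 0.0692), so in whole ovaries this gene does not by itself check the labels. The ovary markers were present in every library, with *Foxl2* of pregranulosa cells at 118 ± 3.93 CPM (SD, n = 4) in controls, and the germ cell genes *Ddx4* and *Dazl* at 142 ± 21.9 and 326 ± 45.3 CPM. The testis genes *Sox9* and *Amh* were low, at 9.24 ± 0.924 and 1.10 ± 0.286 CPM in controls. In *Bmpr1a*-cKO ovaries *Foxl2* was lower, at 79.3 ± 7.29 CPM (edgeR FDR = 1.80e-05), as was *Sox9*, at 6.83 ± 0.567 CPM (FDR = 0.0135). *Dazl* was higher there, at 505 ± 95.0 CPM (FDR = 0.00101), and *Ddx4* and *Amh* did not pass the test. Together the 38 repair genes took 0.218% to 0.252% of the counts of a library.

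Repair genes moved in both directions (Log2FC is the log2 ratio of *Bmpr1a*-cKO to control from edgeR's quasi-likelihood test, with FDR adjusted over all 14249 genes tested). At FDR < 0.05, 10 of the 38 rose and 6 fell. These 16 are 42.1% of the members, beside 29.8% of all genes tested, with 17.3% of all genes higher and 12.5% lower. In Log2FC, *Fancb*, *Fancd2* and *Rif1* led the rises and *Atr*, *Rad51d* and *Fancg* the falls. The call of *Fancg* depended on single libraries. *Mdc1*, close behind it at -0.36, kept its call with any library left out. By the study's definition of a DEG, which adds an absolute Log2FC above 0.5, 3 genes were higher and 1 was lower, beside 6.11% and 4.06% of all genes (10.2% in both directions). In 12 members (31.6%) the libraries of the genotypes did not overlap, 7 of them higher and 5 lower in *Bmpr1a*-cKO ovaries, beside 27.9% of all genes (16.1% higher and 11.7% lower). The median Log2FC over the 38 was -0.024, with 18 above 0 and 20 below, and the median over all genes tested was -0.004. The RNA came from whole ovaries, so fewer cells of a type and less RNA per cell cannot be told apart. The 10 to 6 split depended on scaling, and was 8 to 7 with upper-quartile scaling and 7 to 8 with library size alone.

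**Figure D1:**
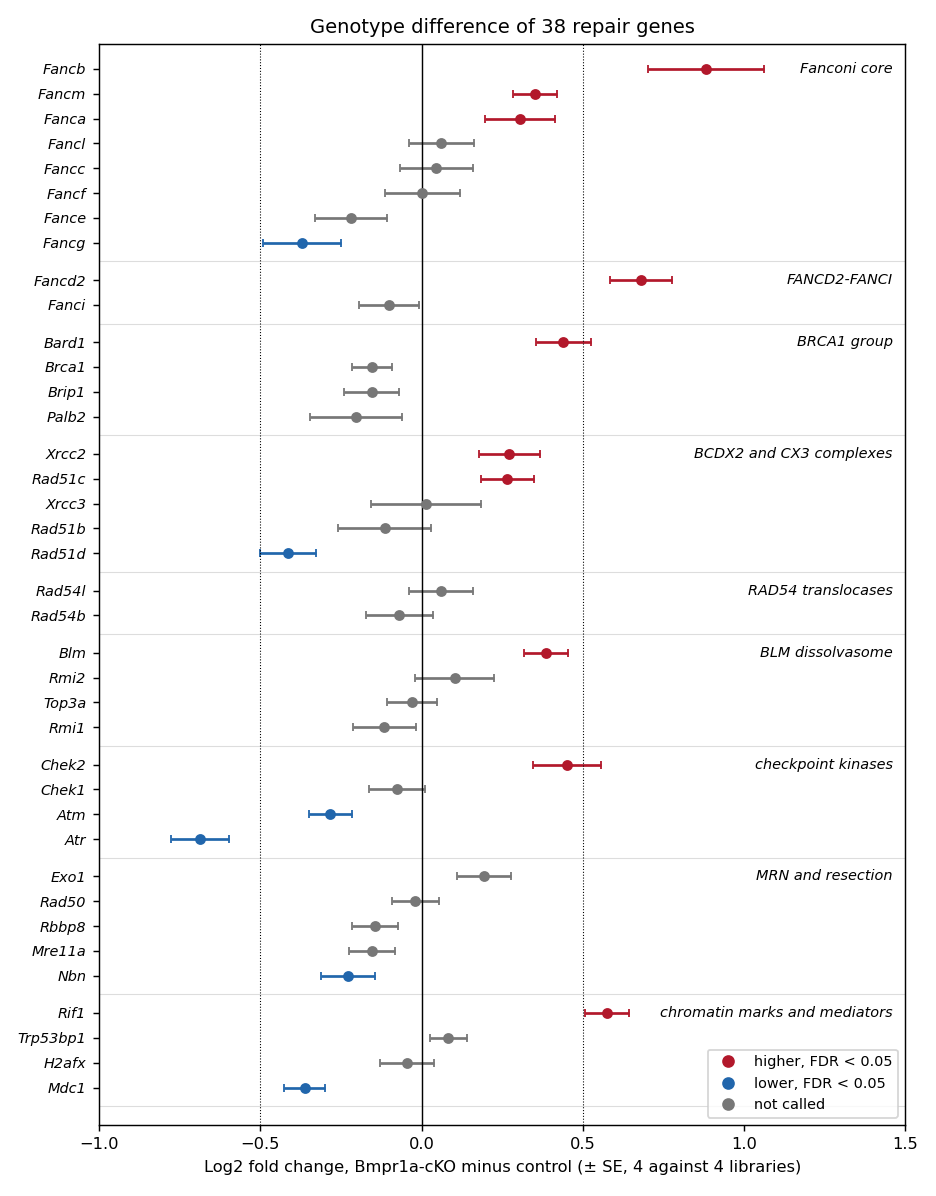
Log2FC of *Bmpr1a*-cKO over control ovaries for each of the 38 repair genes, in role groups, as the edgeR estimate ± SE from 4 against 4 libraries, with dotted lines at the DEG threshold of 0.5 in each direction. Red points rose and blue points fell at FDR < 0.05, from 0.88 for *Fancb* to -0.69 for *Atr*, and most groups hold both called and uncalled members.

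Several role groups held genes that rose beside genes that fell. Among the 8 Fanconi core genes 3 rose and 1 fell, among the 5 genes of the BCDX2 and CX3 complexes 2 rose and 1 fell, among the 4 checkpoint kinases 1 rose and 2 fell, and among the 4 genes of chromatin marks and mediators 1 rose and 1 fell. One gene rose and none fell among the 2 FANCD2-FANCI genes, the 4 BRCA1 group genes and the 4 genes of the BLM complex. Of the 5 MRN and resection genes 1 fell, and neither RAD54 translocase passed the test. Over all genes tested 17.3% were higher and 12.5% lower, and groups this small cannot be told apart from those shares. The heat map of relative levels shows these values by library. Control replicate 3 had the highest level of the 4 control libraries for 24 of the 38 genes, where it was highest for 28.9% of all genes tested. Replicate 1 of the *Bmpr1a*-cKO group, the library with the fewest counts, was the lowest of its group for 21 of the 38 genes, beside 34.0% of all genes. Without that library the counts were again 10 higher and 6 lower, and without control replicate 3 they were 11 and 4.

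**Figure D2:**
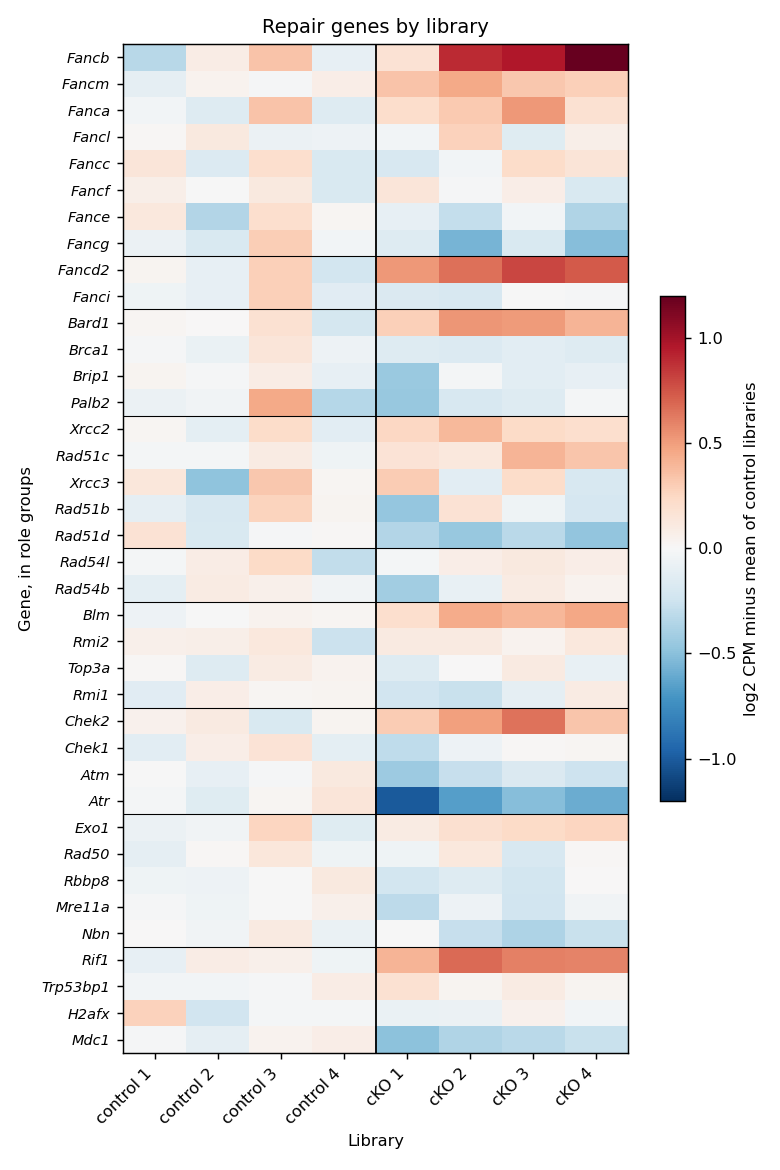
Each row is a repair gene and each column a library, and the colour gives log2 CPM minus the mean log2 CPM of the 4 control libraries, from blue (lower) to red (higher). Rows of *Fancd2* and *Rif1* are red across the *Bmpr1a*-cKO columns and the row of *Atr* is blue there, while most other rows stay pale. The row of *Fancb* is red in these columns except in replicate 1, which is pale (0.17).

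Because these genes are used in dividing cells, their promoters were searched for the site of the E2F factors, which drive genes of S phase. RefSeq promoter windows of GRCm38.p6, from 250 bases before to 50 bases after the annotated start, were matched for 26 of the 38 genes, in 30 windows. The letters searched were TTTCCCGC, TTTGGCGC, TTTCGCGC and TTTGCCGC on both strands, and TTTGGCGC can share bases with the GGCGCC motif searched below. An E2F motif stood in 7 of the 30 windows (23.3%), beside 3.91% of 14321 windows of genes tested and 2.27% of all 32851 windows. It stood in windows of genes that rose (*Bard1*, *Chek2* and both windows of *Rad51c*), of genes that fell (*Fancg* and *Mdc1*) and of *Rmi1*, which did not pass the test. The window of *Fancb* held none, and that of *Atr* held none of the motifs searched. The 4 windows below are shown because they carry the same motif, in capitals, while *Bard1* and *Chek2* rose and *Fancg* and *Mdc1* fell. Each is written 5′ to 3′ along the strand of the gene.
Bard1, chr1:71102923-71103222, minus strand: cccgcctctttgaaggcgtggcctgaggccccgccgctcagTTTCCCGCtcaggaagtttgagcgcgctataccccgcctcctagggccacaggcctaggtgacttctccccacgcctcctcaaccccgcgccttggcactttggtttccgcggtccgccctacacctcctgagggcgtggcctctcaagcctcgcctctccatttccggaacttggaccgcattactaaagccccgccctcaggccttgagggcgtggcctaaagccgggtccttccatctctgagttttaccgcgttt
Chek2, chr5:110839733-110840032, plus strand: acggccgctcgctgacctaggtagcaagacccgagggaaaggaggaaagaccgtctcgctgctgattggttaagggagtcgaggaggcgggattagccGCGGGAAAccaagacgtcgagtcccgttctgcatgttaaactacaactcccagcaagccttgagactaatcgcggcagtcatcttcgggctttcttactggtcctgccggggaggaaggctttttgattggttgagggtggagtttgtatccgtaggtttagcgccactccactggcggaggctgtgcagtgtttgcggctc
Fancg, chr4:43010252-43010551, minus strand: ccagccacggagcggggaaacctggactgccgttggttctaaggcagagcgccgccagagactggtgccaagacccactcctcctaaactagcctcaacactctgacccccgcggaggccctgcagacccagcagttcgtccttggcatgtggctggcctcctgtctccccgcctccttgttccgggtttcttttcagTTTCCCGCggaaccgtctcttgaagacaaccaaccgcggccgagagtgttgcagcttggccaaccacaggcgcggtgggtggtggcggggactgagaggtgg
Mdc1, chr17:35841248-35841547, plus strand: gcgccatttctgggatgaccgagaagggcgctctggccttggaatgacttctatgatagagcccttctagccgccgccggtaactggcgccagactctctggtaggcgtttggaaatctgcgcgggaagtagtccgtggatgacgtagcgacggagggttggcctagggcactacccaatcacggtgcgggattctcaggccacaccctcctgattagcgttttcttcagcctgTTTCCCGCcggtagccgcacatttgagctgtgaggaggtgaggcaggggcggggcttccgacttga
The motif began at position -209 from the annotated start in *Bard1*, -152 in *Chek2*, where it reads GCGGGAAA on the strand of the gene, -52 in *Fancg* and -16 in *Mdc1*. These starts are those of RefSeq and differ from the GENCODE starts of the gene spans given below. From the GENCODE start the motif of *Fancg* would lie inside the gene. The NF-Y box CCAAT was found in 21 of the 30 windows (70.0%), beside 37.8% of windows of genes tested. The motif CNCCTCAG, bound by STRA8 with MEIOSIN, was found in 3 windows (beside 9.13% of windows of genes tested), the GC-rich motif GGCGCC of SMAD1/5 in 6 (20.0%, beside 20.8%), and the cell cycle motif CHR (TTTGAA) in 2 (6.67%, beside 11.9%). A match of letters is a description and not evidence of binding.

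The Fanconi core complex is the ubiquitin ligase of the pathway, with FANCL as its catalytic subunit, and FANCB is its partner in the catalytic module. *Fancb*, on chrX:164980592-164997272 (mm10), was read at 9.36, 12.6, 15.1 and 11.03 CPM in controls and at 13.3, 22.1, 23.2 and 27.8 CPM in *Bmpr1a*-cKO ovaries. Replicate 1 of the *Bmpr1a*-cKO group lay inside the control range and the other 3 libraries lay above it. *Fancb* had the highest Log2FC of the 38 genes, 0.88 ± 0.180 (SE, FDR = 0.00182). Its partner *Fancl* gave 16.5 ± 1.04 CPM in controls and 17.1 ± 2.20 CPM in *Bmpr1a*-cKO ovaries (mean ± SD of 4, FDR = 0.695).

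*Fancm*, on chr12:65075603-65132058, encodes the DNA translocase that anchors the core complex at damaged forks. It was read at 36.1, 40.2, 38.5 and 41.1 CPM in controls and at 49.5, 53.3, 48.7 and 47.6 CPM in *Bmpr1a*-cKO ovaries. Every *Bmpr1a*-cKO value exceeded every control, with a Log2FC of 0.35 ± 0.0687 (FDR = 0.00132). *Fanca* and *Fancg* encode subunits that bind each other within the complex, and they went in opposite directions with overlapping libraries.

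*Fanca*, on chr8:123268300-123318576, was read at 31.1, 28.6, 40.3 and 28.5 CPM in controls and at 36.9, 39.6, 45.7 and 36.1 CPM in *Bmpr1a*-cKO ovaries. Control replicate 3 reached into the *Bmpr1a*-cKO range, and the Log2FC of *Fanca* was 0.30 ± 0.109 (FDR = 0.0465). The call of *Fanca* was lost without control replicate 1, 2 or 4 (FDR = 0.103, 0.126 and 0.163) and without *Bmpr1a*-cKO replicate 2 or 3 (FDR = 0.0984 and 0.161). It was also lost with DESeq2 (adjusted p = 0.0525) and with RLE, upper-quartile or no scaling factors (FDR = 0.0553, 0.0686 and 0.0801). *Fanca* shares 920 bases of exon with *Zfp276* on the opposite strand, and the strand setting of the counting was not stated.

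*Fancg*, on chr4:43002343-43010506, was read at 19.1, 17.7, 24.7 and 19.6 CPM in controls and at 18.1, 13.6, 17.7 and 14.0 CPM in *Bmpr1a*-cKO ovaries. The highest *Bmpr1a*-cKO library of *Fancg* lay just above the lowest control, and its Log2FC was -0.37 ± 0.122 (FDR = 0.0321). Its call was lost without control replicate 3 or 4 (FDR = 0.0932 and 0.0529) and without *Bmpr1a*-cKO replicate 2 or 4 (FDR = 0.121 and 0.0992). The 4 remaining core genes, *Fancc*, *Fance*, *Fancf* and *Fancl*, did not pass the test. Of these *Fance*, the subunit that binds FANCD2, passed only without control replicate 2, with a Log2FC of -0.33 (FDR = 0.0158) against -0.22 with all libraries (FDR = 0.164).

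FANCD2 and FANCI form the clamp on DNA that the core complex modifies. *Fancd2*, on chr6:113531682-113597017, was read at 52.7, 48.2, 63.0 and 44.4 CPM in controls and at 74.1, 81.9, 90.2 and 86.1 CPM in *Bmpr1a*-cKO ovaries. Every *Bmpr1a*-cKO value exceeded every control, and the rise of *Fancd2* was 0.68 ± 0.0954 (FDR = 8.63e-05). Its antisense neighbour *Fancd2os* had only 1 to 7 counts per library.

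*Fanci*, which encodes the other member of the clamp, was read at 46.9 ± 6.74 CPM in controls and 43.6 ± 3.06 CPM in *Bmpr1a*-cKO ovaries (mean ± SD of 4). Its Log2FC was -0.10 ± 0.0923 (FDR = 0.449), and 921 bases of its exons are shared with *Polg* on the opposite strand. A ratio of 2 genes within a library does not depend on scaling, and the pairs below were chosen after the values had been seen and carry no test. The ratio of *Fancd2* to *Fanci* CPM was 1.18, 1.11, 1.11 and 1.05 in controls and 1.80, 2.02, 1.95 and 1.87 in *Bmpr1a*-cKO ovaries. The mean ratio was thus 1.72 times that of controls, with no overlap between libraries.

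BRCA1 and BARD1 form a ubiquitin ligase that promotes resection, and PALB2 and BRIP1 bind BRCA1. *Bard1*, on chr1:71027498-71103146, with its promoter window printed above, was read at 36.1, 35.6, 40.2 and 30.6 CPM in controls and at 43.2, 51.3, 50.5 and 47.2 CPM in *Bmpr1a*-cKO ovaries. No libraries of *Bard1* overlapped, and its Log2FC was 0.44 ± 0.0861 (FDR = 0.00136). *Brca1*, on chr11:101488764-101551955, was read at 87.5, 83.6, 97.8 and 84.3 CPM in controls and at 79.0, 78.7, 80.7 and 78.9 CPM in *Bmpr1a*-cKO ovaries.

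Every *Bmpr1a*-cKO value of *Brca1* was under every control, but its Log2FC of -0.15 ± 0.0626 did not pass the test (FDR = 0.0786). It passed with upper-quartile scaling (FDR = 0.0306), with library size alone (FDR = 0.0190) and without control replicate 2 (FDR = 0.0448). The ratio of *Bard1* to *Brca1* lay between 0.362 and 0.426 in controls and between 0.548 and 0.651 in *Bmpr1a*-cKO ovaries. *Palb2* and the helicase gene *Brip1* had Log2FC of -0.20 ± 0.142 and -0.16 ± 0.0865, and neither passed the test (FDR = 0.314 and 0.199).

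The 5 genes *Rad51b*, *Rad51c*, *Rad51d*, *Xrcc2* and *Xrcc3* encode the subunits of the BCDX2 and CX3 complexes, which act on single-stranded DNA, with RAD51C in both complexes and XRCC2 bound to RAD51D. *Rad51d*, on chr11:82876434-82890614, was read at 30.5, 23.8, 26.8 and 27.3 CPM in controls and at 21.1, 19.6, 21.5 and 19.4 CPM in *Bmpr1a*-cKO ovaries. Its libraries did not overlap, and *Rad51d* fell by 0.41 on the log2 scale (SE = 0.0872, FDR = 0.00226). *Xrcc2*, the gene of its binding partner, on chr5:25689812-25705825, was read at 17.4, 15.8, 20.0 and 15.8 CPM in controls and at 20.5, 22.5, 20.2 and 19.8 CPM in *Bmpr1a*-cKO ovaries.

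The lowest *Bmpr1a*-cKO library of *Xrcc2* lay just inside the control range, and its Log2FC was 0.27 ± 0.0947 (FDR = 0.0415). That call was lost without control replicate 1, 2 or 4 (FDR = 0.0746, 0.104 and 0.145), without *Bmpr1a*-cKO replicate 2, 3 or 4 (FDR = 0.144, 0.0692 and 0.0617) and with DESeq2 (adjusted p = 0.0739). It was also lost with upper-quartile scaling, library size alone or no filter on low counts (FDR = 0.0658, 0.0853 and 0.0555). The ratio of *Rad51d* to *Xrcc2* ranged from 1.34 to 1.75 in controls and from 0.871 to 1.07 in *Bmpr1a*-cKO ovaries. *Rad51c*, on chr11:87376645-87404954, was read at 24.7, 24.7, 26.9 and 24.3 CPM in controls and at 28.1, 27.6, 33.5 and 31.8 CPM in *Bmpr1a*-cKO ovaries, without overlap.

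The Log2FC of *Rad51c* was 0.27 ± 0.0816 (FDR = 0.0229). The call of *Rad51c* was lost without control replicate 1 or 4 (FDR = 0.0564 and 0.0744) and without *Bmpr1a*-cKO replicate 3 or 4 (FDR = 0.0830 and 0.0827), and with library size alone (FDR = 0.0550). *Rad51b* and *Xrcc3*, at 9.82 ± 1.45 and 8.15 ± 1.83 CPM in controls, did not pass the test (FDR = 0.597 and 0.961). The RAD54 translocases, motors that move along DNA during strand exchange, did not pass either, with Log2FC of 0.06 ± 0.0988 for *Rad54l* and -0.07 ± 0.103 for *Rad54b*. *Rad54b* shares 2068 bases of exon with *Fsbp* on the same strand, which had 10 to 21 counts per library.

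The BLM helicase, the topoisomerase TOP3A and the accessory proteins RMI1 and RMI2 together dissolve joined DNA molecules without crossovers. *Blm*, on chr7:80454733-80535119, was read at 50.3, 52.1, 54.0 and 53.1 CPM in controls and at 60.3, 71.5, 68.9 and 72.3 CPM in *Bmpr1a*-cKO ovaries. The *Blm* libraries did not overlap, and its Log2FC was 0.39 ± 0.0687 (FDR = 0.000635). The 3 other genes of the complex did not pass the test, with *Rmi1* at -0.12 ± 0.0968, *Rmi2* at 0.10 ± 0.123 and *Top3a* at -0.03 ± 0.0772. The ratio of *Blm* to *Top3a* was 1.11 to 1.29 in controls and 1.42 to 1.71 in *Bmpr1a*-cKO ovaries, and that of *Blm* to *Rmi1* was 2.42 to 2.73 and 3.33 to 4.26.

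**Figure D3:**
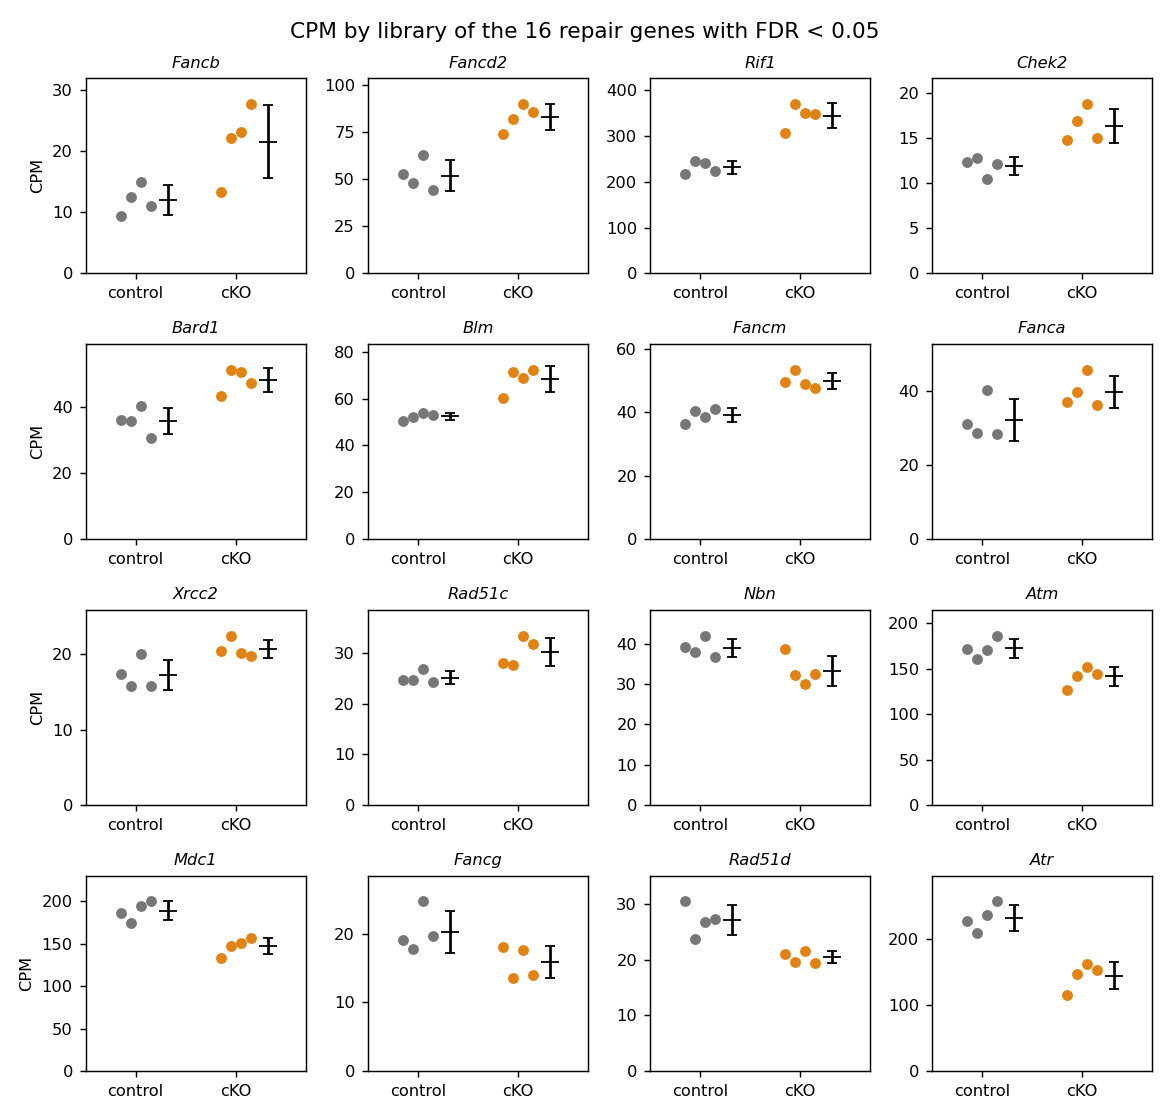
CPM of the 16 repair genes with FDR < 0.05, each panel with 4 control libraries in grey, 4 *Bmpr1a*-cKO libraries in orange, and the mean ± SD of each genotype as a black bar, on axes that start at 0 and differ between genes. *Fancd2*, *Rif1* and *Atr* separate fully, whereas *Fancb*, *Fanca*, *Xrcc2*, *Nbn* and *Fancg* overlap.

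The apical kinases fell while one of the effector kinases rose. *Atr*, the kinase that answers to single-stranded DNA and stalled forks, lies on chr9:95857597-95951781. It was read at 228, 210, 236 and 257 CPM in controls and at 116, 147, 162 and 153 CPM in *Bmpr1a*-cKO ovaries. Every *Bmpr1a*-cKO value was under every control, with a Log2FC of -0.69 ± 0.0908 (FDR = 5.38e-05), the lowest of the 38 genes. The antisense gene *1700065D16Rik*, which overlaps 726 bases of *Atr* exon, had 0 to 9 counts per library. *Atr* exons also overlap the antisense gene *Gm16794* (462 bases) and, on the same strand, the snRNA gene *Gm24004* (178 bases). Neither of these was among the counted symbols.

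*Atm*, the kinase that answers to double-strand breaks, on chr9:53439149-53536740, was read at 171, 161, 170 and 186 CPM in controls and at 127, 142, 152 and 144 CPM in *Bmpr1a*-cKO ovaries. The groups did not overlap, and *Atm* fell by 0.28 on the log2 scale (SE = 0.0663, FDR = 0.00471). *Chek2*, which encodes the kinase activated by ATM, on chr5:110839979-110874145, was read at 12.3, 12.8, 10.5 and 12.2 CPM in controls and at 14.8, 16.9, 18.8 and 15.1 CPM in *Bmpr1a*-cKO ovaries. *Chek2* rose without overlap, by 0.45 ± 0.106 (FDR = 0.00485), and its promoter window is printed above.

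*Chek1*, which encodes the kinase activated by ATR, had a Log2FC of -0.08 ± 0.0878 (FDR = 0.557). The ratio of *Chek2* to *Atm* was 0.0616 to 0.0797 in controls and 0.104 to 0.124 in *Bmpr1a*-cKO ovaries. The ratio of *Chek1* to *Atr* was 0.158 to 0.222 in controls and 0.273 to 0.308 in *Bmpr1a*-cKO ovaries. Both ratios of effector to apical kinase were higher in all *Bmpr1a*-cKO libraries than in any control. They restate the fall of *Atr* and the opposite changes of *Chek2* and *Atm*, and are not separate results.

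The MRN complex of MRE11, RAD50 and NBN holds and trims broken ends. *Nbn*, which encodes the subunit that recruits ATM, on chr4:15957925-15992589, was read at 39.1, 37.9, 42.0 and 36.7 CPM in controls and at 38.7, 32.2, 30.0 and 32.4 CPM in *Bmpr1a*-cKO ovaries. Replicate 1 of the *Bmpr1a*-cKO group lay within the control range, and the Log2FC of *Nbn* was -0.23 ± 0.0824 (FDR = 0.0487). The call of *Nbn* held without that library (FDR = 0.00519) and was lost on leaving out any of the other 7. Without control replicates 1 to 4 in turn the FDR was 0.0959, 0.0501, 0.113 and 0.0507, and without *Bmpr1a*-cKO replicates 2 to 4 it was 0.132, 0.152 and 0.108.

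*Rad50* had 88.2 ± 6.42 and 86.8 ± 7.77 CPM in the control and *Bmpr1a*-cKO groups (Log2FC -0.02, FDR = 0.878). *Mre11a* had a Log2FC of -0.15 ± 0.0712 (FDR = 0.123) and passed only with library size alone (FDR = 0.0474). *Rbbp8*, which encodes the resection factor CtIP, had -0.14 ± 0.0713 (FDR = 0.146). *Exo1*, the gene of the long-range resection nuclease, had 0.19 ± 0.0832 (FDR = 0.0942) and passed without control replicate 3, at 0.28 (FDR = 0.00850).

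The last group marks and reads chromatin at breaks: the histone H2AX is phosphorylated, MDC1 binds that mark, and 53BP1 with RIF1 protects ends from resection. *Rif1*, on chr2:52072832-52122383, was read at 216, 246, 240 and 223 CPM in controls and at 306, 370, 351 and 349 CPM in *Bmpr1a*-cKO ovaries. No libraries overlapped, and *Rif1* rose by 0.57 ± 0.0681 (FDR = 1.98e-05), with the smallest FDR of the 38 genes. *Trp53bp1*, the gene of 53BP1, had a Log2FC of 0.08 ± 0.0577 (FDR = 0.306) and shares 2130 bases of exon with *Tubgcp4* on the opposite strand.

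*Mdc1*, on chr17:35841515-35859670, was read at 186, 175, 195 and 200 CPM in controls and at 134, 147, 150 and 156 CPM in *Bmpr1a*-cKO ovaries. The libraries of *Mdc1* did not overlap, and it fell by 0.36 on the log2 scale (SE = 0.0639, FDR = 0.000591). *H2afx* was read at 304 ± 44.6 CPM in controls and 294 ± 12.4 CPM in *Bmpr1a*-cKO ovaries (mean ± SD of 4, FDR = 0.737). The ratio of *Rif1* to *Trp53bp1* was 1.25 to 1.49 in controls and 1.60 to 2.15 in *Bmpr1a*-cKO ovaries, and the ratio of *Mdc1* to *H2afx* overlapped, at 0.511 to 0.680 and 0.470 to 0.531.

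**Figure D4:**
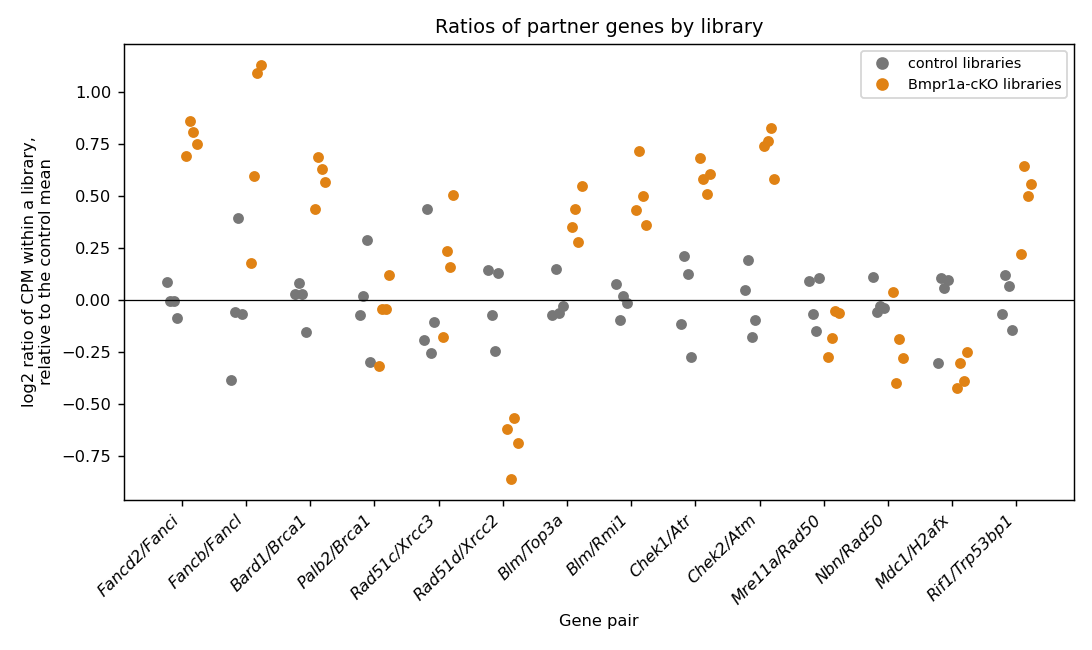
Ratio of CPM of 2 partner genes within each library, on a log2 scale relative to the mean ratio of the 4 control libraries in grey, with the 4 *Bmpr1a*-cKO libraries in orange, for 14 pairs. The pairs were chosen after the values had been seen and carry no test. No share over other gene pairs was computed. The pairs *Fancd2*/*Fanci*, *Bard1*/*Brca1*, *Blm*/*Top3a*, *Blm*/*Rmi1*, *Chek1*/*Atr*, *Chek2*/*Atm* and *Rif1*/*Trp53bp1* are higher in all *Bmpr1a*-cKO libraries, *Rad51d*/*Xrcc2* is lower, and the others overlap.

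Levels differed more between members than between genotypes. Exon length was that of all annotated exons of a gene merged (GENCODE vM21), which can exceed the length of any single transcript. The order below depends on that length. Per kb of merged exon, *H2afx* had the highest control level, 219 CPM per kb, followed by *Mdc1* at 25.5, *Rif1* at 22.03, *Atm* at 16.6 and *Rad50* at 16.4 CPM per kb. *Atm* and *Rad50* lay close together on this scale, and the standard deviations over the 4 controls were 1.01 and 1.19 CPM per kb. The lowest was *Rmi2*, at 1.73 CPM per kb. *Fancd2*, *Chek2* and *Fancb*, which rose, stood at 6.56, 3.98 and 4.02 CPM per kb in controls. *Atr*, which fell, stood at 9.86 CPM per kb over 23629 bases of merged exon, and would stand higher over a shorter transcript. The called genes thus came from the top and from the lower part of the range. The 22 genes that did not pass the test had Log2FC from -0.22 to 0.19 and FDR from 0.0786 to 0.989.

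The calls of *Fancb*, *Fancd2*, *Rad51d* and *Atr* were made under each of the 20 alternative settings. The calls of *Fancm*, *Bard1*, *Blm*, *Atm*, *Chek2*, *Mdc1* and *Rif1* were lost only when libraries were scaled so that the mean log2 CPM of 11 germ cell markers was equal. On that scale the median of all genes moved to -0.101, *Rif1* had a Log2FC of 0.48 (FDR = 0.0567), *Mdc1* -0.47 (FDR = 0.0650) and *Atm* -0.39 (FDR = 0.152). *Blm* stood at 0.28 (FDR = 0.363), *Fancm* at 0.26 (FDR = 0.421), *Bard1* at 0.35 (FDR = 0.229) and *Chek2* at 0.34 (FDR = 0.315). The calls of *Fanca*, *Fancg*, *Rad51c*, *Xrcc2* and *Nbn* were lost on that scale as well (FDR = 0.507, 0.134, 0.653, 0.631 and 0.328). Their Log2FC there was 0.22, -0.44, 0.17, 0.18 and -0.30, so that of these 5 *Fancg* and *Nbn* stood further from 0 than with TMM and the other 3 nearer to it. *Atm* and *Mdc1* also stood further from 0 there. None of the 16 called genes changed direction.

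The repair genes were set beside other lists of repair and cell cycle genes. Of 50 tested genes of the same pathways that are not among the 38, 11 rose and 6 fell, and their median Log2FC was 0.09. The called share of that list was 34%, close to the 29.8% of all genes tested. The rises were largest for *Rpa1*, a subunit of the single-strand binding protein (0.64 ± 0.0708, FDR = 1.08e-05), *Slx1b*, a nuclease gene (0.64 ± 0.119, FDR = 0.000965), and *Rad9a* of the checkpoint clamp (0.53 ± 0.108, FDR = 0.00165). The falls were largest for *Ube2t*, the ubiquitin-conjugating enzyme of the Fanconi pathway (-0.55 ± 0.122, FDR = 0.00339), *Faap24* (-0.54 ± 0.140, FDR = 0.00917) and *Faap20* (-0.28 ± 0.0993, FDR = 0.0431), both of which encode proteins associated with the core complex. Of 19 end joining genes *Xrcc5*, which encodes KU80, rose (0.41 ± 0.0733, FDR = 0.000655) and *Prkdc*, its kinase partner, fell (-0.20 ± 0.0653, FDR = 0.0333), with a median of 0.05. The called share of the end joining list was 10.5%, below that of all genes tested.

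The genes of meiosis-specific recombination stood at another level, with 18 of 24 lower, 1 higher and a median Log2FC of -1.03. The called share of these genes was 79.2%, beside 29.8% of all genes tested. The largest falls were *Mei1* (-2.92 ± 0.240, FDR = 6.60e-07), *Meiob* (-2.59 ± 0.266, FDR = 5.23e-06) and *Spata22* (-2.33 ± 0.251, FDR = 8.21e-06), and *Psmc3ip* was the one that rose (0.49 ± 0.145, FDR = 0.0195). MEIOB and SPATA22 bind single-stranded DNA in meiosis and MEI1 is needed for meiotic breaks. The lowest Log2FC of a repair gene, that of *Atr*, was higher than this median.

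**Figure D5:**
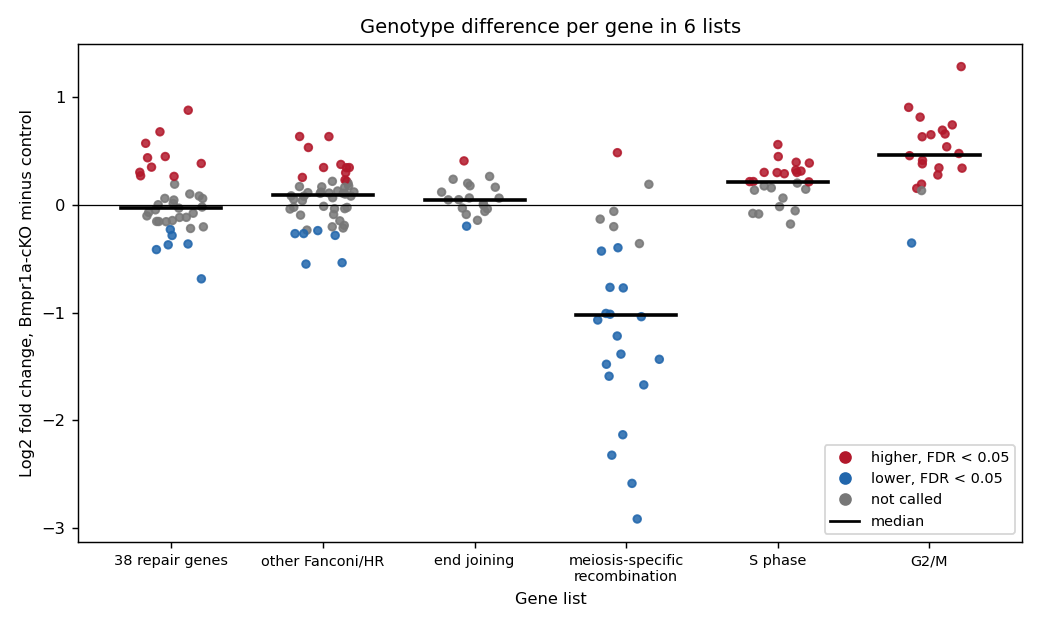
Log2FC of *Bmpr1a*-cKO over control ovaries for each tested gene of 6 lists, as 1 point per gene with red for higher and blue for lower at FDR < 0.05, and the list median as a black line. The medians are -0.024 for the 38 repair genes, 0.09 for other Fanconi and homologous recombination genes, 0.05 for end joining, -1.03 for meiosis-specific recombination, 0.22 for S phase and 0.47 for G2/M.

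Markers of the cell cycle and of other cell types moved with genotype too. The counts below stand beside 17.3% of all genes tested that were higher and 12.5% that were lower at FDR < 0.05. Of 24 S phase genes 13 rose and none fell, and their summed level was 2201 to 2517 CPM in controls and 2673 to 2863 CPM in *Bmpr1a*-cKO ovaries. Of 20 G2/M genes 18 rose and 1 fell, with sums of 2189 to 2339 CPM and 2939 to 3159 CPM. Of 8 pregranulosa markers 7 fell and none rose, with sums of 1363 to 1491 CPM in controls and 1059 to 1345 CPM in *Bmpr1a*-cKO ovaries. Of 11 germ cell markers 3 rose and 2 fell, and their sums overlapped, at 781 to 1056 CPM and 840 to 1266 CPM. Of the 4 macrophage markers tested 3 rose, with sums over the 5 listed of 23.2 to 28.3 CPM and 31.3 to 38.8 CPM. Among the 5 Sertoli markers only *Sox9* passed the test, as a fall, and *Dhh* had a Log2FC above 0. The Sertoli markers *Amh*, *Dhh* and *Ptgds* were near the floor, with at most 16, 16 and 21 counts in any library. The mean log2 CPM differed by 0.20 for S phase, 0.49 for G2/M, -0.36 for pregranulosa cells, 0.54 for macrophages and -0.39 for Sertoli markers. Each of these 5 gave the smallest exact permutation p that 4 against 4 libraries allow (two-sided p = 0.0286, 0.0629 after adjustment over 11 lists). Germ cell markers differed by 0.09 (exact permutation p = 0.600).

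Stroma, endothelium, erythroid, mesonephros and steroidogenic markers did not reach that p (exact permutation p from 0.0571 to 0.914). The mesonephros sums still did not overlap, at 130 to 160 CPM in controls and 101 to 121 CPM in *Bmpr1a*-cKO ovaries (exact permutation p = 0.0571). All 5 mesonephros markers had a Log2FC below 0, and 1 passed the test. Of the 5 steroidogenic markers *Insl3* of Leydig cells had at most 1 count, while the 4 others were tested and 1 of them, *Hsd3b1*, fell, from 35.4 ± 2.93 to 23.0 ± 7.38 CPM (mean ± SD of 4, FDR = 0.00561). The summed level of the 5 was 42.2 to 48.4 CPM in controls and 25.0 to 43.6 CPM in *Bmpr1a*-cKO ovaries. The globin genes *Hbb-bt* and *Hba-a1* had 0 counts in every library. The part of the cell cycle, pregranulosa, macrophage, Sertoli, mesonephros and steroidogenic markers in the changes of the repair genes was not tested.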

How the data were processed

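RNA-Seq had been carried out on 8 libraries of E14.5 fetal ovaries. Per the labels and the study's methods, libraries were built from total RNA with a directional kit, and the authors used Trimmomatic 0.39 for trimming and STAR 2.5.2 for mapping to mm10 and for counting, and deposited unnormalized read counts by gene symbol for every library. The annotation and the strand setting of the counting are not given in the sources used here. A deposited table of CPM holds the same reads and was not used.

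The 38 members and the comparison lists were chosen with earlier results of these data known. Counts were filtered with filterByExpr, scaled by TMM and tested with the quasi-likelihood test of edgeR 4.0.16 in R 4.3.3 on genotype alone, with Benjamini-Hochberg FDR over 14249 genes. DEGs were genes with an absolute Log2FC above 0.5 and FDR below 0.05. CPM values use TMM-scaled library sizes. The fit was tested on simulated counts with equal numbers of genes changed in each direction, which does not address the choice of scaling. Alternatives were the likelihood ratio test, DESeq2 1.42.0, voom of limma 3.58.1, other scalings and filters, the replicate number as a block, and each library left out. Marker lists were compared by exact permutation tests over libraries. Libraries were separate pools by the study's methods, so p-values measure the spread between pools, which may share litters. Each member was described in its role group, with values per library where FDR was below 0.05, or with values where a call changed. From each comparison list of repair genes at most 3 genes per direction with FDR below 0.05 were named by size of Log2FC. Gene positions are those of GENCODE vM21 (mm10), and promoters are those of RefSeq (GRCm38.p6). TMM factors were 1.00 to 1.03 in controls and 0.972 to 0.990 in *Bmpr1a*-cKO libraries, without overlap (exact permutation p = 0.0286, the smallest possible). Depth did not differ detectably (medians 11548980.5 and 11720356.5 counts, exact permutation p = 0.800), and 3 counts in a library correspond to 0.189 to 0.357 CPM.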

Additional observations from a re-analysis of the deposited data

Results flagged for a closer look

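In 76 groups of 4 libraries, 4 held a highest library whose gap to the next was too large a share of the group's range by Dixon's test, and chance marks about 1 in 20 such groups. *Fanci* was at 56.9 CPM in the highest control library, with the next at 44.8 CPM. *Rad51c* was at 26.9 CPM in the highest control library, with the next at 24.7 CPM. *Trp53bp1* was at 179 CPM in the highest control library, with the next at 167 CPM. *Brca1* was at 80.7 CPM in the highest *Bmpr1a*-cKO library, with the next at 79.0 CPM, in a group whose 4 libraries had an SD of 0.926 CPM.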

How the results depend on the processing

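With libraries scaled to germ cell markers, 2 repair genes were higher and 2 lower at FDR < 0.05, the DEGs were 2 higher and 2 lower, and the median Log2FC of the repair genes was -0.12. Over all genes that scaling called 578 higher and 721 lower, against 2461 and 1781 with TMM and 1871 and 2466 with library size alone. Repair gene counts under the other alternatives stayed within 1.5 times, at 7 to 11 higher and 4 to 8 lower. With a library left out they were 7 to 11 higher and 4 to 7 lower, the DEGs stayed 3 and 1, and the median was -0.058 to 0.009, above 0 only without control replicate 3. DESeq2 called 8 higher and 6 lower, and FDR below 0.01 left 7 and 4. With the replicate number as a block 11 rose and 6 fell, *Exo1* being the addition (Log2FC 0.20, FDR = 0.0428). Deviations of same-numbered libraries correlated across genes at 0.198, 0.161, 0.108 and -0.087, and control replicates 3 and 4 correlated best with other numbers, so the numbers were not taken as pairs. The block changed no other call among the 38.

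Pools of 2 ovary pairs and 4 libraries per genotype limit the detectable difference, and standard errors of the 38 genes ran from 0.0577 to 0.180 on the log2 scale. *Fanca*, *Fancg*, *Xrcc2*, *Rad51c* and *Nbn* depend on single libraries. Whole-ovary counts do not separate cell types, and 19 of the 38 genes have exons that overlap a gene on the opposite strand, while use of strand in the counting is not stated.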
